A study of Mus musculus with 4 samples.

Results

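Double-strand break and Fanconi repair genes were examined in irradiated mouse Lin-Sca-1+c-Kit+ (LSK) cells, the bone marrow fraction that is rich in haematopoietic stem and early progenitor cells. The members are 46 genes listed by function: damage checkpoint kinases, the ATR-activating clamp, break sensing on chromatin, end joining, end resection, homologous recombination and the Fanconi pathway. Membership follows function and uses no value of these arrays, but the list was drawn up with earlier results of these data known. Of the 46, 42 had at least 1 probe set named by that gene alone, with 88 probe sets in all, out of 45101 probe sets and 18194 named genes on the array. Claspn, Dclre1c, Rbbp8 and Xrcc2 were not analysed here.

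A double-strand break is detected by the MRE11-RAD50-NBN complex, which activates the kinase ATM, while single-stranded DNA at resected ends or stalled forks activates ATR through the RAD9-HUS1-RAD1 clamp. The break is then closed either by end joining, which ligates the ends directly and is open to cells in any cycle phase, or by homologous recombination, which copies the sister chromatid and is restricted to S and G2. The Fanconi pathway handles crosslinks between DNA strands by placing ubiquitin on the FANCD2-FANCI pair. Quiescent haematopoietic stem cells are known to rely largely on end joining after irradiation, and loss of Fanconi genes causes bone marrow failure.

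The cells came from C57BL/6 mice whose marrow had been reconstituted with fetal liver cells that were either necdin null or wild type, and every mouse had then been irradiated sublethally at 6.5 Gy. Each genotype has 2 arrays and there is no unirradiated array, so the effect of irradiation itself is not part of the comparison. The age of the mice, the time between irradiation and cell collection, the number of animals behind an array and the share of remaining host cells are not stated in the labels. Since nothing says that the arrays hold separate animals, p-values speak of array spread alone, part of which may be technical.

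Ndn, the targeted gene, was lower on the necdin null arrays. On both of these arrays 6 of its 8 probe sets lay below both wild type arrays. Its probe set of highest mean log2 signal gave 55.4 and 105 in necdin null cells against 253 and 255 in wild type cells. The Ndn probe set brightest in wild type cells gave 2.73 and 12.1 against 559 and 392. Of the LSK markers, Kit gave 6049 and 3744 in necdin null and 6617 and 3976 in wild type cells, and the 13 of 15 markers analysed all passed the filter on low values; Ly6a, which encodes Sca-1, was not analysed here. Necdin null replicate 2 stood apart in a sign of RNA quality, a Gapdh 3' to 5' ratio of 15.8 against 9.96 to 11.7 on the other arrays. The 3' signal thus far exceeded the 5' signal on every array. The brightest 1% of probe sets held 37.4% of the signal on necdin null replicate 2 and 28.9% to 30.6% elsewhere. The part of this in disagreements between probe sets of a gene was not tested. Xist was low on necdin null replicate 2 alone (76.8 against 4841 to 9930). The Y-linked Eif2s3y was low on wild type replicate 1 alone (32.6 against 1974 to 2987). Both were high on necdin null replicate 1 (Xist 4841, Eif2s3y 2273) and on wild type replicate 2 (7182 and 1974). The arrays of a group therefore differ in their sex-linked signals, and 1 array of each group carries both. The part of sex in the repair gene values was not tested. Neutrophil markers, 14 of 15 analysed and all above the filter, had summed signals of 102980 and 212480 in necdin null and 78943 and 148480 in wild type cells, which overlap. Of these 14 genes 13 were higher in the necdin null mean, beside 45.9% of all genes, at a median log2 difference of 0.43. The groups were apart on the higher side for 3 of them, beside 12.8% of all genes. Of the B lineage markers 8 of 9 analysed passed the filter. Of the 8, 7 were lower, beside 54.1% of all genes, at a median of -0.33 with no groups apart. Of 9 T and NK markers analysed 3 passed the filter: Nkg7 at 3048 to 4045, Thy1 at 184 to 329 and Klrd1 at 99.9 to 307. The T cell receptor genes Cd3d, Cd3e and Cd3g reached at most 41.1 on any array. No marker of these lists passed limma, and their part in the repair gene values was not tested.

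Nearly all repair genes lay above the filter on low values. Of the 42 analysed genes, 41 passed it, beside 12680 of all 18194 named genes. The filter keeps genes whose mean log2 signal reaches the 40th percentile of all probe sets, equal to a signal of about 30.3. It is a relative cut and not a detection call, and 8 of 9 B lineage markers analysed passed it too. The signal is the MAS5 summary of a probe set on a linear scale, with arrays scaled to the same trimmed mean. Because the brightness of a probe set also depends on its probes, levels do not rank genes. Mean signals of the 4 damage kinases ran from 771 to 3191, those of the 5 clamp and mediator genes from 645 to 5998 and those of the 6 break sensing genes from 457 to 3892. The 6 end joining genes ran from 109 to 2663, the 3 resection and helicase genes from 848 to 1232, the 9 recombination genes from 54.1 to 1573 and the 8 Fanconi genes from 99.97 to 1332. These ranges are of the brightest probe set of each gene, and dimmer ones near the filter exist for Chek1 and Hus1 as well.

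**Figure D1:**
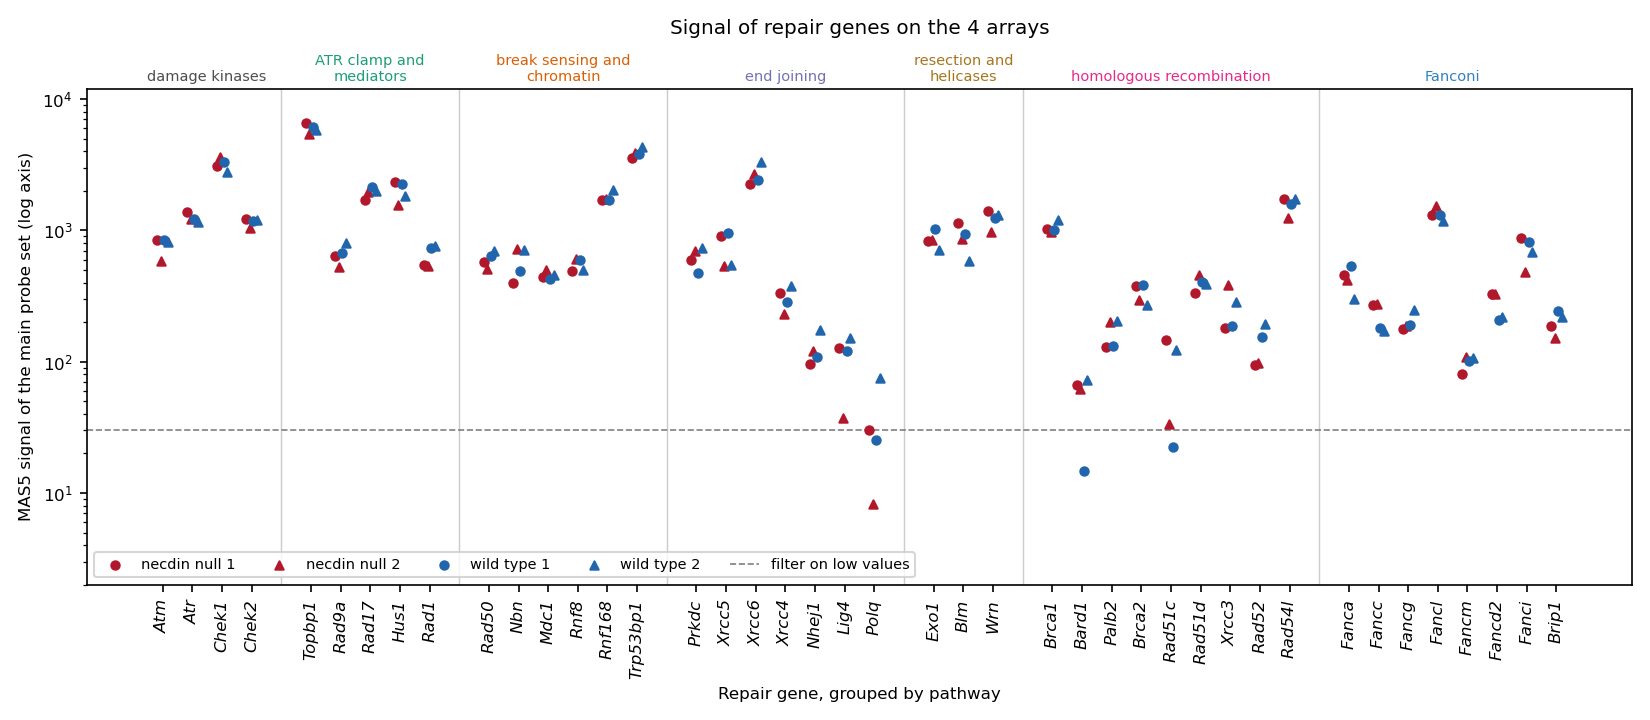
MAS5 signal (log axis) of the main probe set of each of the 42 analysed repair genes on the 2 necdin null (red) and 2 wild type (blue) arrays, grouped by pathway, with circles for replicate 1, triangles for replicate 2 and a dashed line at the filter signal of 30.3. Topbp1 is the brightest at a mean of 5998, Polq lies around the filter, and Bard1, Rad51c and Lig4 show the widest spread among the genes kept.

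The comparison asked whether LSK cells without necdin, a growth-suppressing protein made from the imprinted gene Ndn, are unlike wild type cells in the expression of these genes after irradiation. No repair gene passed the test between necdin null and wild type cells. With limma, 0 of 41 members had an adjusted p under 0.05 (the lowest was 0.999, adjusted over all 12680 genes kept), beside 0% of all genes. At an unadjusted limma p under 0.05 there were also 0 of 41 members, beside 3.02% of all genes. With the replicate number as a block, limma called 0 members, beside 0.0237% of all genes. Differences are given as log2(signal + 3.8), necdin null minus wild type, a scale that understates the change of dim genes. Here and below, fewer cells of a type and less RNA per cell cannot be told apart, since the arrays measure bulk RNA.

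Most differences were small. Of the 41 members, 36 differed by less than 1.5-fold, and the median log2 difference was -0.09 against -0.03 over all genes. The 95% interval of a single member, unadjusted for the number of genes, reached a median of 0.65 to either side, about 1.57-fold. Differences below that size were not detectable for a typical member with 2 arrays a group. A call at an adjusted p under 0.05 needs a larger difference still. Even the smallest unadjusted limma p of all genes, 0.000114, had an adjusted p of 0.98. By sign alone 27 members were lower and 14 higher, 65.9% lower beside 54.1% of all genes. That balance was 21 lower and 21 higher without necdin null replicate 2, and 21 lower and 20 higher with the mean of all probe sets of a gene. The groups did not overlap for 10 of 41 members, beside 30.5% of all genes. Of these 7 were lower (17.1%, beside 17.7% of all genes) and 3 higher (7.32%, beside 12.8%), so the lower share was near the background and the higher share under it. With median centring of the arrays 12 were lower and 2 higher, beside 23.2% and 7.42% of all genes.

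**Figure D2:**
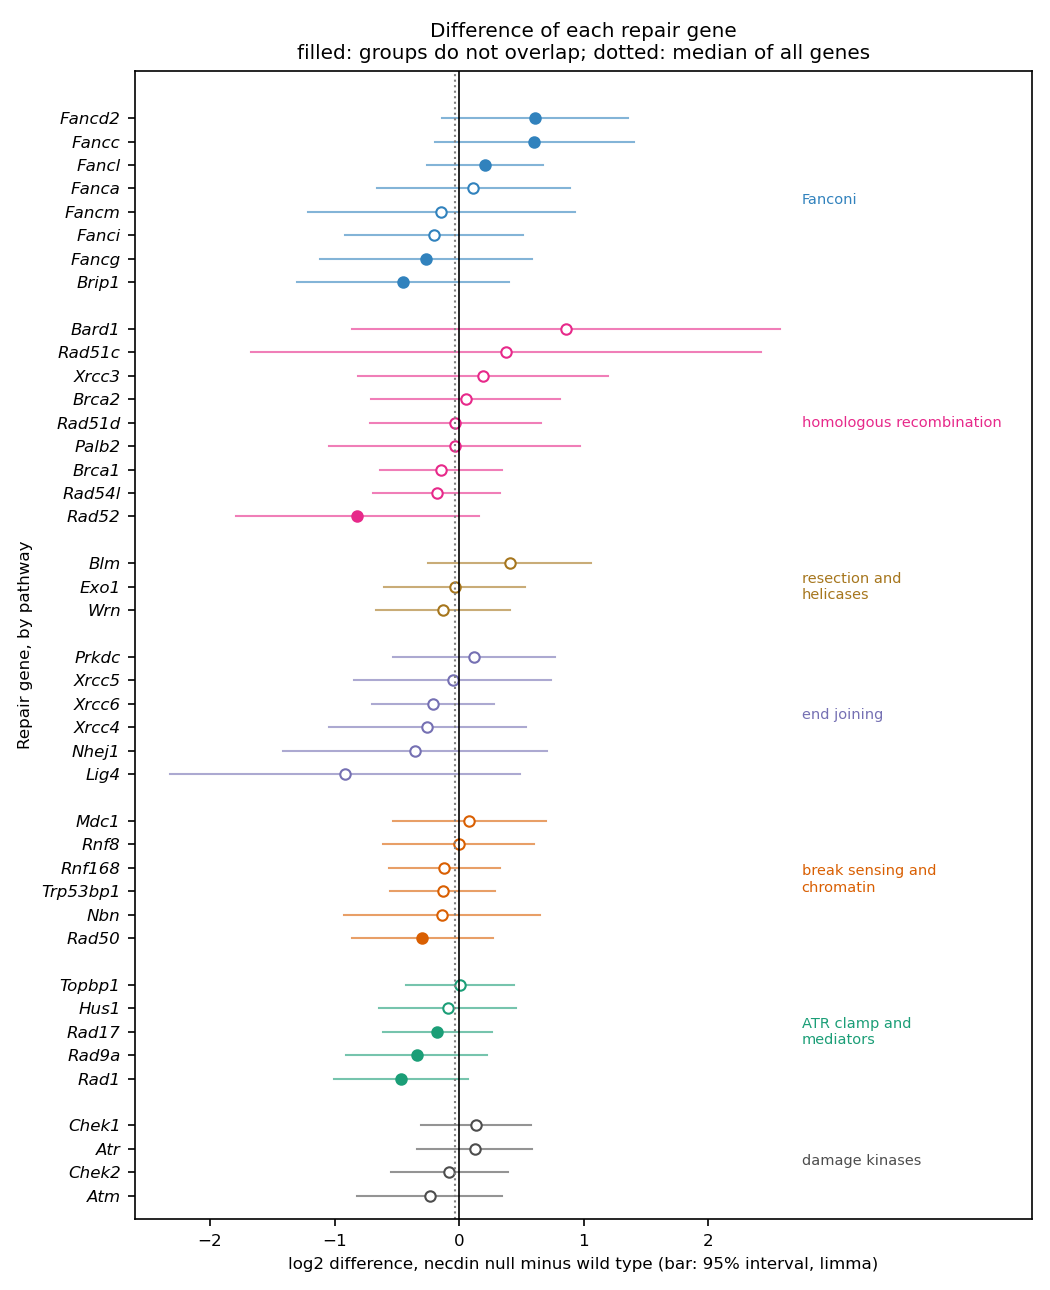
Log2 difference, necdin null minus wild type, of the 41 repair genes above the filter with its 95% interval from limma, coloured by pathway; filled points mark genes whose groups do not overlap, and the dotted line is the median of all genes, -0.03. Every interval covers 0, and the filled points are 7 on the lower and 3 on the higher side.

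By their main probe sets the upstream kinases were nearly level between genotypes. Atm, which encodes the kinase activated by double-strand breaks, gave 840.0 and 587 in necdin null cells against 848 and 809.8 in wild type cells, with a log2 value of -0.24 (standard error 0.26). The value is carried by necdin null replicate 2, and without that array it was 0.020. Atr, the kinase that answers single-stranded DNA, gave 1386 and 1211 against 1226 and 1150.1 (0.13, standard error 0.20). Its dimmer probe sets above the filter disagreed, 1 at -0.28 with overlapping groups and 1 at 0.62 with groups apart on the higher side. The latter gave 146 and 130 against 72.0 and 107. Chek1, the effector kinase downstream of ATR, gave 3081 and 3594 against 3314 and 2776 (0.13, standard error 0.19). All 5 of its probe sets were higher in the necdin null mean, by 0.13 to 0.61. Chek2, the effector kinase downstream of ATM, gave 1227 and 1038 against 1174 and 1209 (-0.08, standard error 0.21), and it was 0.04 without necdin null replicate 2. The groups overlapped for the main probe set of each of the 4 kinases.

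The clamp that activates ATR and its loader were lower on both necdin null arrays, apart from Hus1. Rad1, a clamp subunit, gave 548 and 533 in necdin null cells against 737 and 762 in wild type cells. Its replicates lay close together in both groups and the groups did not overlap, at -0.47 (log2, standard error 0.24), with the smallest unadjusted limma p of the 41 members, 0.08. Leaving out each array in turn, and the other alternatives, gave values from -0.55 to -0.42. Rad9a, the clamp subunit whose tail binds TOPBP1, gave 637 and 529.9 against 678 and 799.6 (-0.34, standard error 0.25). Rad17, which loads the clamp, gave 1704 and 1968 against 2149 and 1988, groups that were apart by only a small gap (-0.17, standard error 0.19). Hus1, the remaining clamp subunit, gave 2347 and 1561 against 2268 and 1838, which overlap (-0.09, standard error 0.24), and it was 0.20 without necdin null replicate 2. Topbp1, which the clamp recruits to switch on ATR, stood at 0.01 (standard error 0.19). Of the 5 genes of this step 3 were lower with groups apart, beside 17.7% of all genes, and none passed the test. The median difference of the 5 genes was -0.17, and under the 15 alternatives it ran from -0.39 to -0.12. Its sign was largely fixed beforehand. With 3 of the 5 genes apart on the lower side, omitting 1 array cannot bring the median above 0. The replicate block and the variance model cannot move it at all. Rad1, Rad9a and Rad17 have 1 probe set each, so no second probe set bears on their direction. Of 23 G2/M and mitosis genes 7 were lower with groups apart, beside 17.7% of all genes, at a median of -0.18. None passed limma, and 3 had an unadjusted limma p under 0.05, beside 3.02% of all genes. The part of the G2/M genes in the clamp values was not tested.

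Break sensing genes were close between genotypes by their main probe sets. Rad50, the ATPase of the MRE11 complex, gave 578 and 505 in necdin null cells against 633 and 695 in wild type cells, groups that did not overlap (-0.29, standard error 0.25). Nbn, the subunit of the same complex that recruits ATM, gave 394 and 723 against 489 and 703 (-0.13, standard error 0.35). The spread between replicates of 1 genotype was far wider there than the difference between genotypes. Trp53bp1, whose protein 53BP1 shields ends from resection, gave 3529 and 3895 against 3812 and 4332 (-0.13, standard error 0.18). Its 6 probe sets above the filter ran from -0.53 to 0.54, 3 on each side of 0. Mdc1, the adaptor that binds the phosphorylated histone at breaks, and the ubiquitin ligases Rnf8 and Rnf168 had differences of 0.08, -0.0029 and -0.12, with overlapping groups. The dimmer Rnf168 probe set had the opposite sign, at 0.83 (standard error 0.64), with 104 and 114 against 104 and 33.5.

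Among the end joining genes, none had groups apart by its main probe set. Xrcc6, which encodes Ku70, gave 2251 and 2671 in necdin null cells against 2426 and 3305 in wild type cells (-0.21, standard error 0.22). Its partner Xrcc5, which encodes Ku80, gave 909.8 and 533 against 949.9 and 549.6 (-0.05, standard error 0.35). The arrays of replicate number 2 were both the lower ones there, in both genotypes. Prkdc, the catalytic subunit of the DNA-dependent kinase that Ku recruits, gave 598 and 694 against 477 and 736 (0.12, standard error 0.29). Lig4, the ligase that seals the ends, gave 127 and 37.1 against 119.8 and 151 (-0.92, standard error 0.62). That difference rests on necdin null replicate 2, and without it the value was -0.08. The ligase partners Xrcc4 and Nhej1, the latter encoding XLF, had -0.25 and -0.35 by their main probe sets, but 0.50 and 1.63 by their other probe set. That of Nhej1 gave 83.0 and 60.6 against 11.7 and 33.8, with groups apart on the higher side (unadjusted limma p 0.051 and adjusted p 0.996 over all probe sets). Polq, the polymerase of microhomology-mediated joining, did not pass the filter, with 30.0 and 8.23 against 25.5 and 74.7. The median difference of the 6 genes kept was -0.23, and it ranged from -0.44 without wild type replicate 1 to 0.03 with the mean of all probe sets or with probe sets of plain design.

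Resection and helicase genes overlapped between genotypes. Blm, the helicase mutated in Bloom syndrome, which acts in resection and in dissolving joined molecules, gave 1129 and 861 in necdin null cells against 946 and 583 in wild type cells (0.41, standard error 0.29). It was 0.06 without wild type replicate 2. Wrn, the helicase and exonuclease of Werner syndrome, gave 1403 and 970.4 against 1238 and 1317 (-0.13, standard error 0.24), and it was 0.14 without necdin null replicate 2. Its dimmer probe set above the filter stood at 0.69 (standard error 0.59), also with overlapping groups. Exo1, the exonuclease of long-range resection, had -0.03 (standard error 0.25).

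Of the recombination genes, Rad52 had the largest difference with groups apart by main probe sets. Rad52, a protein that anneals single strands, gave 93.9 and 98.3 in necdin null cells against 154 and 192 in wild type cells. The log2 difference was -0.82 (standard error 0.43), a fold of 1.76, and it ranged from -0.97 to -0.60 under the alternatives. Its other probe set gave 123 and 65.1 against 128 and 108 (-0.38), lower in the mean as well but with arrays nearer to each other. By main probe sets, 1 member, Rad52, had groups apart and was at least 1.5-fold lower, beside 5.24% of all genes. On the higher side were 2, Fancc and Fancd2, beside 3.93%. With Fancd2 taken by its dimmer probe set, which has the opposite direction, the counts were 2 lower and 1 higher.

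The main probe sets of the BRCA genes were close to level. Brca1, whose protein promotes resection and recruits PALB2, gave 1026 and 965 in necdin null cells against 999 and 1207 in wild type cells (-0.14, standard error 0.22). Its 4 probe sets above the filter were all lower in the necdin null mean, and the dimmest differed most, at -1.01 and -1.47 with groups apart and signals of at most 98.3. With the mean of all probe sets Brca1 stood at -0.67 (standard error 0.35, limma adjusted p 0.997). Brca2, a mediator of strand exchange, gave 376 and 296 against 381 and 270.4 (0.05, standard error 0.33), a value whose sign changed with median centring. Palb2, the link between both proteins, gave 129 and 201 against 132 and 205, with each pair of same-numbered arrays almost equal (-0.03, standard error 0.44). Bard1, the partner of BRCA1, gave 67.0 and 62.1 against 14.8 and 72.6 (0.86, standard error 0.76). That difference came from wild type replicate 1, and without it the value was -0.16.

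The remaining recombination genes had overlapping groups by their main probe sets. Rad51c gave 145 and 33.7 in necdin null cells against 22.3 and 124 in wild type cells, so the spread within each genotype was several-fold (0.37, standard error 0.90). Rad51d gave 332 and 457 against 401 and 394 (-0.03, standard error 0.30), and Xrcc3 gave 182 and 381 against 187 and 283 (0.19, standard error 0.44). Rad54l, a motor protein that moves along DNA during recombination, had -0.18 by its brightest probe set, while its other probe sets above the filter gave 0.31 and 0.47. The latter, with 796 and 861 against 756 and 473, had groups apart on the higher side, as did a dimmer Rad51d probe set with 176 and 136 against 128 and 121 (0.30).

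Fanconi genes held the higher values with groups apart as well as lower ones. Fancc, a core complex subunit, gave 268 and 274 in necdin null cells against 181 and 173 in wild type cells. Replicates were close together in both groups, and the log2 difference was 0.61 (standard error 0.35). All 3 of its probe sets above the filter were higher in necdin null cells. The dimmest gave 91.0 and 145 against 48.2 and 39.2, also with groups apart (1.33), and the value of the gene stayed between 0.52 and 0.74 under all 15 alternatives. Fancl, the ubiquitin ligase subunit of the core complex, gave 1315 and 1542 against 1300.5 and 1169.7, groups that barely cleared each other (0.21, standard error 0.20).

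Fancd2, the protein that the core complex marks with ubiquitin, gave opposite differences by its 2 probe sets above the filter. The brighter one gave 329.5 and 326 in necdin null cells against 207 and 221 in wild type cells (0.61, standard error 0.33). The dimmer one gave 166 and 158 against 252 and 288 (-0.72, standard error 0.36 from a fit over all probe sets above the filter). The groups were apart for both, in opposite directions, and the replicates of each genotype were close to each other in both. The mean of all Fancd2 probe sets was lower, at -0.19, so these data give the gene no direction. Which transcripts or exons each probe set reads was not looked up here.

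The other Fanconi genes were lower or level. Brip1, the helicase that binds BRCA1, gave 188 and 150.3 in necdin null cells against 243 and 219 in wild type cells, groups that did not overlap (-0.45, standard error 0.37). Fancg, a core complex subunit, gave 176 and 187 against 192 and 249.7, with a gap of only a few signal units between the groups (-0.27, standard error 0.37). Fanci, the partner of FANCD2, gave 878 and 483 against 817 and 688 (-0.20, standard error 0.31). Fanca, which also belongs to the core complex, gave 455 and 415 against 538 and 299.7 (0.11, standard error 0.34). Fancm, the translocase that brings the core complex to DNA, gave 81.2 and 109 against 102 and 107 (-0.14, standard error 0.47). By main probe sets the 8 genes had 4 on each side of 0 and a median of -0.01. With Fancd2 by its dimmer probe set 3 were higher and 5 lower, at a median of -0.17, and the median reached 0.13 without necdin null replicate 2.

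Probe sets of the same gene often disagreed. Of the 19 members with more than 1 probe set above the filter, 7 had all of them in the same direction, 36.8% beside 42.3% of all such genes. Fancc, Chek1 and Brca1 were among the 7, and Fancd2, Nhej1, Xrcc4 and Rad54l were not. Of the 74 member probe sets above the filter none passed limma over all probe sets (lowest adjusted p 0.996).

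**Figure D3:**
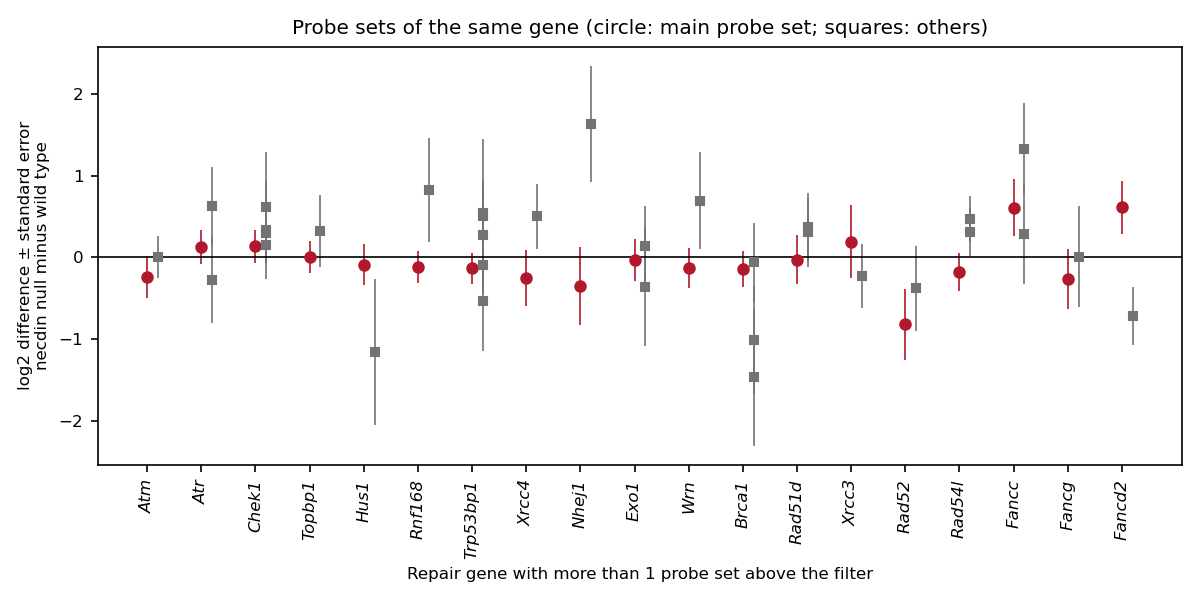
Log2 difference, necdin null minus wild type, with its standard error for each probe set above the filter of the 19 repair genes that have more than 1; red circles are the main probe sets (highest mean log2 signal) and grey squares the others. The 3 Fancc probe sets are all above 0, and the 2 of Fancd2 lie at 0.61 and -0.72.

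Pathway medians showed how much single arrays weighed. As the median deviation from the mean of the 4 arrays, the clamp and mediator genes stood at -0.04 and -0.25 in necdin null and 0.14 and 0.03 in wild type cells, the only pathway besides the Fanconi genes whose groups did not overlap. The Fanconi genes stood at 0.06 and 0.06 against 0.0037 and -0.10, but with Fancd2 by its dimmer probe set they stood at -0.04 and -0.05 against 0.13 and 0.04, the opposite order. For all 41 members the values were -0.03 and -0.03 against 0.02 and 0.11, in which wild type replicate 2 lay highest. These groups did not overlap either. Over all genes, each necdin null array (0.0083 and -0.026) likewise lay below both wild type arrays (0.023 and 0.028). Groups apart on the lower side in such medians were therefore not particular to the clamp genes. With 2 arrays a group, the smallest two-sided p of an exact permutation test is 0.333, so no test of these medians was made.

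**Figure D4:**
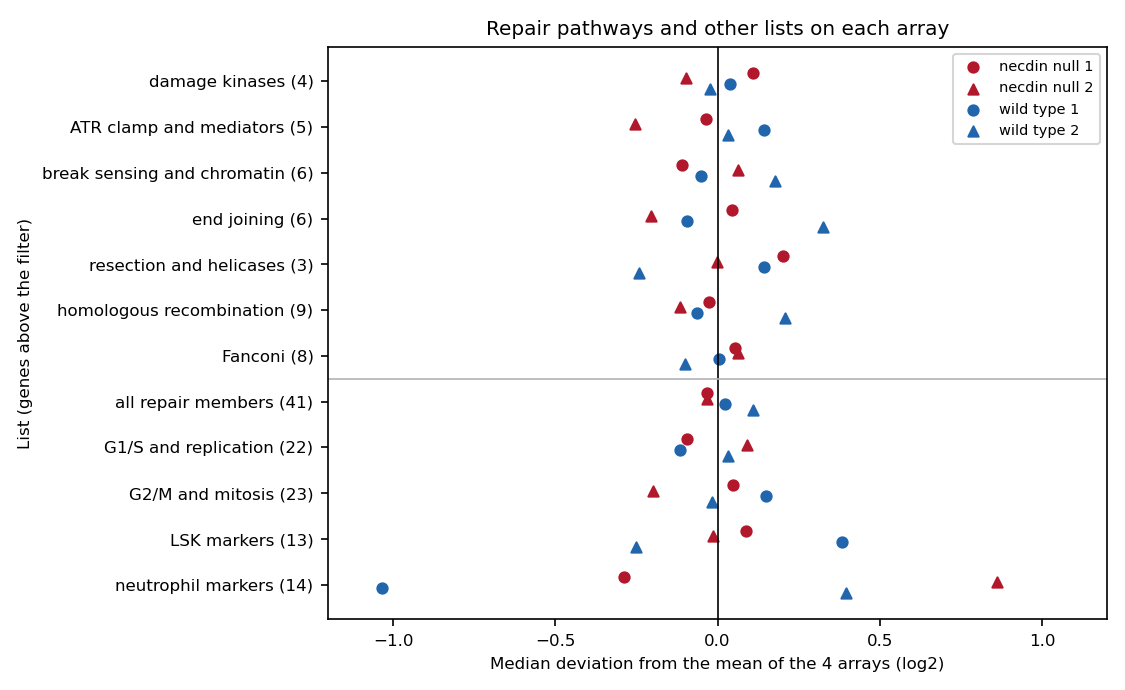
Median deviation from the mean of the 4 arrays (log2) of each repair pathway, all repair members and 4 other gene lists, with red for necdin null, blue for wild type, circles for replicate 1 and triangles for replicate 2, and the number of genes above the filter in brackets. Repair pathways stay within 0.33 of 0, while neutrophil markers range from -1.03 to 0.86 with overlapping groups.

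Members whose mRNA is known to peak around S phase were set beside the rest, since cycling differs between stem and progenitor cells. Of the 12 S phase members kept, 7 stood above 0 and 5 below, at a median of 0.03, or 6 and 6 at a median of -0.01 with Fancd2 by its dimmer probe set. Of the other 29, 7 stood above 0 and 22 below, beside 54.1% of all genes below, at a median of -0.13. The balance over all members became 21 lower and 21 higher without necdin null replicate 2. With the mean of all probe sets it was 21 lower and 20 higher. The difference between the subsets was not tested. On the arrays the S phase members stood at 0.15 and -0.06 in necdin null and 0.10 and -0.11 in wild type cells, so the groups overlapped. Among 22 G1/S and replication genes, 10 stood above 0 and 12 below (median -0.03).

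Further genes of the same pathways, such as RPA subunits, nucleases and the SMC proteins, had differences of similar size. Of 55 listed, 51 were analysed here and 50 passed the filter; 21 stood above 0 and 29 below, at a median of -0.08. None passed limma and 0 had an unadjusted p under 0.05. The smallest p was that of Poll, a gap-filling polymerase of end joining, at 343 and 269 in necdin null cells against 401 and 543 in wild type cells (-0.61, standard error 0.32). Tipin, which protects stalled forks together with Timeless, gave 4591 and 5160 against 3961 and 3984 (0.29, standard error 0.18). Cdc25b, a phosphatase that the checkpoint kinases hold back, gave 811 and 512 against 1078 and 733 (-0.46, standard error 0.30).

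Upstream sequence was examined for the members whose groups were apart, to show what their promoters share. The RefSeq promoter table (build GRCm38.p6) held 35 of the 46 members, and the 250 bases before the annotated transcript start were searched on both strands for the E2F motif (TTCCCGC or TTGGCGC), the CHR motif of the DREAM complex (TTTGAA) and the CCAAT box of NF-Y (CCAAT). On its opposite strand the CCAAT box can overlap the latter E2F letters. An E2F motif was in 13 of the 35 members (37.1%), beside 11.3% of the 10287 genes kept on the array that have a window there and 6.45% of all 27025 genes of the table. A CHR motif was in 4 (11.4%, beside 12.97% of genes kept), and a CCAAT box in 14 (40%, beside 39.8%). Of the members that peak in S phase, 3 of 11 held an E2F motif, and of the others 10 of 24. A match describes the letters and is neither a site nor a cause.

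The windows of 6 of these members are printed from 5′ to 3′ on the strand of the gene, with motif letters in capitals. Rad1 and Rad17, the clamp subunit and the clamp loader, hold none of the 3 motifs. Rad52 has an E2F motif that starts 132 bases before the transcript start, on the opposite strand, and Fancg has one that starts 51 bases before it, on the strand of the gene. Brip1 has 3 CCAAT boxes, at 99, 67 and 34 bases, and Fancc has 1, at 242 bases, all on the opposite strand.
Rad1, chr15:10485768-10486017, plus strand: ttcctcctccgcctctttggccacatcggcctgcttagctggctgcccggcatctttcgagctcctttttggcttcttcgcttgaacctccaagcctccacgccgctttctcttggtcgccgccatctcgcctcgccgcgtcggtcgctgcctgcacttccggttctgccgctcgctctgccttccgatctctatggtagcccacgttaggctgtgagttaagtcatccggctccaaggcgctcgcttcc
Rad17, chr13:100651062-100651311, minus strand: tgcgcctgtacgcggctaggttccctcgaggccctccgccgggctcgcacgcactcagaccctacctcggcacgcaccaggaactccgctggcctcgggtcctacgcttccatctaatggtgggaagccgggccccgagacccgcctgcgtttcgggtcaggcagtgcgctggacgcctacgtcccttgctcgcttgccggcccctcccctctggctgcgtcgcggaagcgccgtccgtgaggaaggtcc
Rad52, chr6:119902448-119902697, plus strand: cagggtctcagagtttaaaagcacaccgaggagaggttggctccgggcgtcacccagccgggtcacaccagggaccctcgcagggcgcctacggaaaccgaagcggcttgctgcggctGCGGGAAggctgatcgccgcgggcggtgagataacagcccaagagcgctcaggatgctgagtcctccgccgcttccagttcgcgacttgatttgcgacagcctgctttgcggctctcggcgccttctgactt
Brip1, chr11:86201194-86201443, minus strand: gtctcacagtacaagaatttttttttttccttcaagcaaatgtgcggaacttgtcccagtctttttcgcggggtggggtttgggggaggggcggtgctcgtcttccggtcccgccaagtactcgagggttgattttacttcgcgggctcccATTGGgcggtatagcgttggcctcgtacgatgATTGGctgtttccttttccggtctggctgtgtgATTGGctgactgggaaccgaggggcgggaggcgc
Fancg, chr4:43010302-43010551, minus strand: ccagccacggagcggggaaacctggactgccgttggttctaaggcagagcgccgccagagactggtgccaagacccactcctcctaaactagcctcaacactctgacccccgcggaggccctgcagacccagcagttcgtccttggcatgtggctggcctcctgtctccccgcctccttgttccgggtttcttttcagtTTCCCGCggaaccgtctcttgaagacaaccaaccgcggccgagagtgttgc
Fancc, chr13:63431746-63431995, minus strand: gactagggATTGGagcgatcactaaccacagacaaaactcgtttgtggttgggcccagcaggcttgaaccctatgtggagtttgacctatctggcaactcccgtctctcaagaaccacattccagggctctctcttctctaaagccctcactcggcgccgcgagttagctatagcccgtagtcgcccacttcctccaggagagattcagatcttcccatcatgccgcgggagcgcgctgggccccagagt
Of the 5 lower members with groups apart and a window, 2 (Rad52 and Fancg, 40%) hold an E2F motif, beside the 37.1% of members above, and Brip1 alone holds a CCAAT box, as Fancc does on the higher side.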

How the data were processed

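The authors deposited MAS5 signal intensities of 4 Affymetrix arrays, 1 table for all; MAS5 is named in the submitters' processing notes, with no version in the sources used here. The values are linear, and the mean after trimming 2% at each end is 500.004 on every array. Values were analysed as log2(signal + 3.8), the pseudocount being the 10th percentile of all values, without further normalization. The platform annotation named a probe set where it gives 1 symbol. The probe set of highest mean log2 signal stood for its gene, and a gene was kept if that mean reached the 40th percentile over all probe sets (log2 5.09), which left 12680. Genotypes were compared in R 4.3.3 with limma 3.58.1 (lmFit and trended eBayes; two-sided p adjusted by Benjamini-Hochberg over the genes kept, threshold 0.05). The code was also tested on simulated data. Depth is not defined for arrays; their number limits the precision. No 2 arrays were identical, and rank correlations between them ran from 0.89 to 0.92.

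The members and lists were chosen with earlier results of these data known. Named with values were members with groups apart and at least 1.5-fold, the 2 of smallest p in each pathway, 7 central genes (Atm, Atr, Chek1, Chek2, Brca1, Brca2 and Fancd2) and members under the filter; other members are named after their values were seen. Of the other pathway genes the 3 of smallest p are named. Alternatives changed the pseudocount, filter, normalization, variance model and probe sets, used a replicate block, or omitted each array in turn; Fancd2 by its dimmer probe set was added after seeing the data. Same-numbered arrays are not said to be paired; their deviations from group means correlated at 0.11 over genes, with 2 pairs.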

Additional observations from a re-analysis of the deposited data

Results flagged for a closer look

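The Gapdh control probe sets lie outside the comparison of genes. Their 3' to 5' ratio was 15.8 on necdin null replicate 2, above both wild type arrays (9.96 and 11.7) and above necdin null replicate 1 (10.96). Without that array 9 of 41 repair genes changed sign (22%, beside 24.3% of all genes): Atm, Chek2, Hus1, Xrcc5, Xrcc4, Wrn, Rad54l and Fanci to between 0.0054 and 0.33, and Xrcc3 to -0.25. Without each of the other arrays 7 or 8 did. The part of RNA quality in these values was not tested.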

How the results depend on the processing

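No repair gene was called under any alternative that kept all 4 arrays. Of the 22 members followed, 14 kept their direction under each of the 15 alternatives. Part of this was fixed beforehand, since the 22 include every member with groups apart. By the same probe set, such a member cannot change sign when 1 array is omitted. The replicate block, the variance model and the other Fancd2 probe set leave the differences of all other genes unchanged. The count of all called genes, 0, became 3 with the replicate block, in which 0 members were called (lowest adjusted p 0.898), and 0 to 4 when 1 array was omitted. The members' median of -0.09 became -0.17 with median centring and -0.0029 with the mean of all probe sets of a gene. The median over all genes, -0.03, became -0.11 and -0.019 under the same settings, so median centring lowered all genes along with the members. When 1 array was omitted the members' median ran from -0.17 to -0.023. Members higher with groups apart were 6 with the mean of all probe sets (14.6% of all genes), and those lower were 12 with median centring (23.2% of all genes); omitting 1 array gave 7 to 12 and 12 to 18, where the remaining array of a group alone decides (27.7% to 30.3% of all genes higher and 32.1% to 38.4% lower). The lone array of a group is then assumed to vary like the others. Signs turned with the mean of all probe sets for Trp53bp1 (0.091), Wrn (0.31) and Fancd2 (-0.19), for Fancd2 by its dimmer probe set (-0.72), and for Brca2 with median centring (-0.027). When 1 array was omitted, Atm ran from -0.49 to 0.020, Chek2 from -0.20 to 0.043 and Wrn from -0.39 to 0.14, each highest without necdin null replicate 2. Bard1 ran from -0.16 (without wild type replicate 1) to 1.88, Xrcc6 from -0.43 to 0.015 (without wild type replicate 2) and Brca2 from -0.19 (without wild type replicate 2) to 0.30. The cause of these changes was not tested. With all 4 arrays, 3 members had an unadjusted limma p under 0.05 without the intensity trend. There was 1 with probe sets of plain design and 0 under the other settings. The share of all genes was not computed under the changed settings, so these counts have no background beside them. Replicate numbers did not pair the arrays in the main test.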
